A study of Mus musculus with 24 samples.

Results

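The mRNAs of 4 cytosolic DnaJ proteins (Hsp40 co-chaperones) were followed in heat-shocked mouse embryos: Dnajb1 and Dnajb6 of subfamily B, and Dnaja1 and Dnaja2 of subfamily A. A probe was taken as a member when the platform annotation gave it exactly 1 gene symbol and that symbol was one of these 4. This probe rule used no measured value, but the 4 genes were chosen with earlier results of these data known. This gave 9 probes for 4 of the 6970 genes that had at least 1 such probe. Slide type 1 held 7 of them, 2 each for Dnajb1, Dnajb6 and Dnaja1 and 1 for Dnaja2, and slide type 2 held 1 for Dnaja1 and 1 for Dnaja2. Subfamily B was therefore measured on slide type 1 only.

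Heat-shocked embryos had been held at 43 °C for 15 min and then kept at 37 °C for 1 h before their total RNA was taken, and control embryos had stayed in culture at 37 °C. Both RNAs were hybridised together on arrays with 2 channels, 24 in all, from 3 numbered treatments. Each treatment was put on 2 slide types that carry different probes, with 4 arrays per slide type: 2 carrying the heat-shocked RNA in channel 1 and the control RNA in channel 2, and 2 the other way round, and in each channel order 1 array whose slide code ends in B. The sources used here name neither strain nor age nor number of embryos, and nothing says that the treatments were separate litters, so the tests speak of the spread between these 3 treatments, which may be technical. RNA of whole embryos was measured, so fewer cells of a type and less RNA per cell cannot be told apart.

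DnaJ proteins bind unfolded clients and hand them to Hsp70, whose ATP hydrolysis they stimulate through the J domain. Subfamily A proteins carry a zinc finger region in addition to the J domain, while subfamily B proteins lack the zinc finger region. Dnajb1 is the classical heat-inducible Hsp40, Dnaja1 and Dnaja2 are abundant partners of the constitutive Hsp70, and Dnajb6 suppresses protein aggregation and is needed for placenta formation in the mouse. Heat shock genes are switched on when the heat shock factor Hsf1 binds heat shock elements, which are inverted repeats of the unit GAA in their promoters.

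The promoter sequences are shown because that element differs between the members in a way that can be set beside their values. They are the 250 bases before the first annotated start of each gene in RefSeq on GRCm38.p6, read 5′ to 3′ on the strand of the gene. The windows are chr8:83607925-83608174 (plus strand) for Dnajb1, chr5:29735648-29735897 (plus strand) for Dnajb6, chr4:40722218-40722467 (plus strand) for Dnaja1 and chr8:85555362-85555611 (minus strand) for Dnaja2. Capitals mark matches to a heat shock element core.
Dnajb1: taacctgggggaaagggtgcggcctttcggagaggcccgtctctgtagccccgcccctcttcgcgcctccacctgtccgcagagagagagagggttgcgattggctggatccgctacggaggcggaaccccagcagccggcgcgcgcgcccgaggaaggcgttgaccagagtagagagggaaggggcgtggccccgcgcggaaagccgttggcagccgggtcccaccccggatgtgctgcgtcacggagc
Dnajb6: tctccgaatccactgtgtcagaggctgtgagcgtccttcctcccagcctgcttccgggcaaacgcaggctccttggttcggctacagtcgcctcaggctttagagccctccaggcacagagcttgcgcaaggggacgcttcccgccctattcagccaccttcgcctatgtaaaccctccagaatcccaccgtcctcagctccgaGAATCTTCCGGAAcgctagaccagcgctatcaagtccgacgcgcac
Dnaja1: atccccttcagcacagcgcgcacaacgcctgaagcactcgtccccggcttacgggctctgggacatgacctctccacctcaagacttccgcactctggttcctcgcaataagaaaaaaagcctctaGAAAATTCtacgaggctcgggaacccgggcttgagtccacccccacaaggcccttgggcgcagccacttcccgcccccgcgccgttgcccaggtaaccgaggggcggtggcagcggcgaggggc
Dnaja2: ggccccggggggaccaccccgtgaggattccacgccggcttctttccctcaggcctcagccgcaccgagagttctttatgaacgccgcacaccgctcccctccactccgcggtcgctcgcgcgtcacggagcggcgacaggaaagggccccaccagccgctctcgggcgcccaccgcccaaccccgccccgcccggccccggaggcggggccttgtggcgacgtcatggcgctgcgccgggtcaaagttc

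The motifs GAANNTTC and TTCNNGAA, each its own reverse complement, and a longer element of 3 units, GAANNTTC extended by NNGAA, which contains both, were searched on both strands of all annotated windows of 300 bases, 250 before and 50 after a start. Dnajb6 holds the element of 3 units as GAATCTTCCGGAA at chr5:29735852-29735864, with its first base 46 bases before the first start and 127 before the second. Dnaja1 holds the short core GAAAATTC at chr4:40722344-40722351, 124 bases before its first start. The 2 windows of Dnajb1 and the single window of Dnaja2 hold none of the 3 motifs, nor do the other 2 windows of Dnaja1, which says only that these letters are not there. Over all 32851 windows, 0.603% hold the element of 3 units, 7.86% hold GAANNTTC and 8.52% hold TTCNNGAA. All 4 promoters are rich in G and C, at 69.6% in the window of Dnajb1, 60.4% in that of Dnajb6, 63.6% in that of Dnaja1 and 73.2% in that of Dnaja2, against a median of 52.4% over all windows. A match is a description of the sequence and was not tested as a binding site.

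Values are the authors' processed log ratios, each array centred on its median over all probes. Neither the base of the log nor which channel is the numerator is stated, so a value is given in log units and by side. The numerator was taken to be channel 1, which makes a positive value heat shock over control, and with channel 2 as the numerator it would be the reverse. With the sign turned, every log ratio given here changes sign and every count of calls changes sides, so that Dnajb1 would have −0.68 in place of 0.68. Arrays of the same channel order correlated over all probes at r = 0.29 to 0.82 on slide type 1. On slide type 2 they correlated at −0.34 to 0.94. The direction is not settled, because the numerator is not stated and arrays of the same channel order can run opposite ways there. Once the arrays of a treatment were averaged, each channel order with the same weight, the 3 treatments correlated at r = 0.70 to 0.80 for the first slide type and 0.82 to 0.90 for the second, taken across probes, which are not replicates. On the second, averaging lets opposite deviations of the channel orders cancel, so the higher r there does not show that its treatments were closer.

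Dnajb1 and Dnaja1 lay on the positive side, Dnaja2 lay on the negative side where it passed the test, and Dnajb6 averaged close to 0. The gene value, the mean over its probes, was 0.68 ± 0.19 log units for Dnajb1 (SD, n = 3 treatments, limma adjusted p = 0.000275). It was 0.41 ± 0.22 for Dnaja1 on slide type 1 (limma adjusted p = 0.00899) and 0.43 ± 0.37 on slide type 2 (limma adjusted p = 0.00161). Dnaja2 had −0.17 ± 0.14 on slide type 1 (limma adjusted p = 0.143, not called, and 0.14 when arrays were not centred) and −0.32 ± 0.05 on slide type 2 (limma adjusted p = 0.000322). That small SD on slide type 2 arose on averaging the channel orders, whose own SDs over treatments were 0.37 and 0.30, and the call was lost within either order alone. Dnajb6 had 0.00042 ± 0.107 (limma adjusted p = 0.998), with a 95% interval of −0.13 to 0.14. A value of 0.68 units would be 1.60-fold in base 2 and 1.97-fold in natural logs.

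Of the 7 member probes on slide type 1, 3 had positive calls and 0 had negative ones, where 11.0% and 5.09% of all 7680 probes were called positive and negative, 16.1% in all (limma, Benjamini-Hochberg adjusted p under 0.05). At an unadjusted limma p under 0.05, 1 member probe was negative, that of Dnaja2. Of the 2 probes on slide type 2, 1 was called positive and 1 negative, against 28.9% and 24.4% of all probes there and 53.3% in all, so a call on it sets a probe apart far less than on slide type 1. At the level of genes the background was 5.73% positive and 5.65% negative (11.4% in all) of 3838 genes on slide type 1, and 18.5% positive and 31.9% negative (50.4% in all) of 4075 genes on slide type 2. Some of these backgrounds moved with the treatments kept or with the fit. The negative calls on slide type 1 numbered 391 probes, and 234 without treatment 2. With single arrays and the treatment as a replicate block they numbered 678. The positive calls on slide type 2 numbered 2219, with 994 without treatment 1, 3038 without treatment 2 and 1318 without treatment 3. The median of the 7 member probes was 0.15 against −0.015 over all probes of slide type 1.

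**Figure D1:**
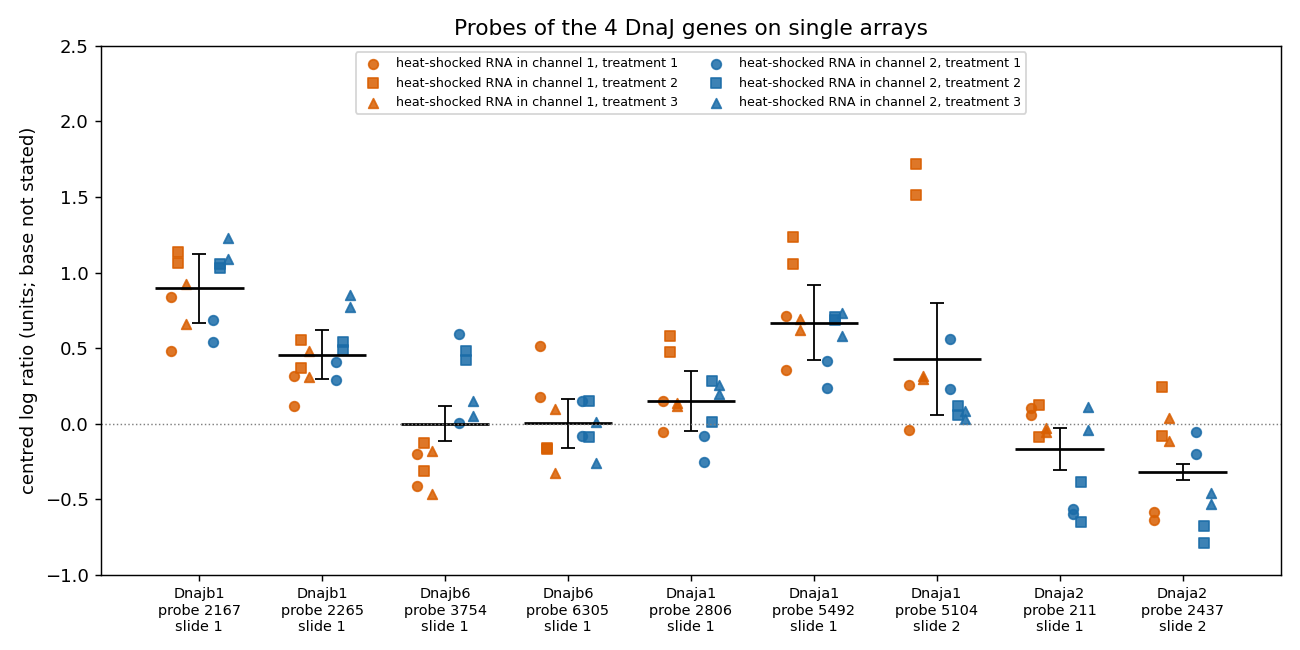
Centred log ratio (vertical axis, log units) of each of the 9 member probes on each of its 12 arrays. Colour gives the channel of the heat-shocked RNA and shape the treatment; the black line and bar are the mean and SD of the 3 treatments. Both Dnajb1 probes and Dnaja1 probe 5492 lie above 0 on all 12 arrays, whereas Dnajb6 probe 3754 lies below 0 in one channel order and above 0 in the other.

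Both probes of Dnajb1 were positive on 12 of 12 arrays. Probe 2167 had 0.64, 1.07 and 0.98 log units in treatments 1, 2 and 3, a mean of 0.89 ± 0.23 (SD, n = 3, limma adjusted p = 2.14e-06), and stood 101st from the top of 7680 probes. Treatment 1 was the lowest of the 3, and all 3 lay well away from 0. Probe 2265 had 0.28, 0.49 and 0.60, a mean of 0.46 ± 0.16 (limma adjusted p = 0.000405), which placed it 344th. Its lowest treatment was again treatment 1. The channel orders gave like values: probe 2167 ranged from 0.48 to 1.14 with a median of 0.88 over the 6 arrays that had heat-shocked RNA in channel 1, and from 0.54 to 1.23 with a median of 1.04 over the 6 that had it in channel 2. Probe 2265 ranged from 0.12 to 0.55 with a median of 0.34 in the first order and from 0.29 to 0.85 with a median of 0.51 in the second. The call of Dnajb1 as a gene, and that of each of its probes, held under every alternative setting that was run.

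The 2 probes of Dnajb1 differed in size. Probe 2167 exceeded probe 2265 on 12 of 12 arrays, by 0.44 ± 0.13 log units over the 3 treatments, with a smallest treatment difference of 0.36. An exact sign-flip test over 3 treatments cannot go below p = 0.25, so no test of this difference was run. Across the 12 arrays the probes correlated at r = 0.69, a description of points that share slides, labelling and RNA.

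Dnajb6 was measured by 2 probes, and both averaged close to 0 while their arrays differed. Probe 3754 had −0.0034, 0.12 and −0.11 log units in treatments 1, 2 and 3, a mean of −0.00014 ± 0.114 (SD, n = 3, limma adjusted p = 0.999). Its 6 channel 1 arrays (heat-shocked RNA in channel 1) ranged from −0.46 to −0.13 with a median of −0.26, and its 6 channel 2 arrays from 0.0068 to 0.59 with a median of 0.29. The 2 channel orders did not overlap, and before the sign of the second order was turned the centred value was negative on 12 of 12 arrays. This separation depended on the centring. Deposited values ran from −0.17 to 0.46 in the first order and from −0.82 to −0.16 in the second, and overlap once the sign of the second is turned. How many of all probes separate in this way was not counted. Probe 6305 had 0.19, −0.066 and −0.12 in the 3 treatments, a mean of 0.00097 ± 0.165 (limma adjusted p = 0.998). It was positive on 6 of 12 arrays, 3 in each channel order, and no treatment stood on one side in all of its 4 arrays. The 95% intervals were −0.14 to 0.14 for probe 3754 and −0.15 to 0.16 for probe 6305, so a value as large as that of Dnajb1 lies outside both. Without centring the gene value of Dnajb6 was 0.30 and not called (limma adjusted p = 0.184), in a setting that moved the median of all probes of slide type 1 to 0.29.

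In subfamily A, Dnaja1 lay on the positive side on both slide types. Probe 5492 of slide type 1 had 0.43, 0.92 and 0.66 log units in treatments 1, 2 and 3, a mean of 0.67 ± 0.25 (SD, n = 3, limma adjusted p = 4.65e-05), and stood 191st of 7680. It was positive on 12 of 12 arrays, from 0.35 to 1.24 in the channel order with heat-shocked RNA in channel 1 and from 0.23 to 0.73 in the other. Treatment 2 was highest and treatment 1 lowest. Probe 2806 had −0.061, 0.34 and 0.18, a mean of 0.15 ± 0.20 that was not called (limma adjusted p = 0.244). It was positive on 9 of 12 arrays, and the 3 below 0 were all of treatment 1. Without treatment 1 it had 0.26 and was called (limma adjusted p = 0.0427), and without centring it had 0.45 and was called (limma adjusted p = 0.0369). The gene value of Dnaja1 on slide type 1 lost its call with heat-shocked RNA in channel 2 only, at 0.31 (limma adjusted p = 0.0901).

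The 2 probes of Dnaja1 on slide type 1 moved together at different heights. Probe 2806 was below probe 5492 on 12 of 12 arrays, by a difference of −0.52 ± 0.057 log units over the 3 treatments, and across the 12 arrays they correlated at r = 0.93. Which of them reports the gene more faithfully was not tested.

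Dnaja1 probe 5104 of slide type 2 had 0.25, 0.85 and 0.18 log units in treatments 1, 2 and 3, a mean of 0.43 ± 0.37 (SD, n = 3, limma adjusted p = 0.00807 among probes), and stood 293rd of 7680. Once arrays were centred, the value of treatment 2 came from one channel order. Its channel 1 arrays, those with the heat-shocked RNA in channel 1, had 1.72 and 1.51, against 0.059 and 0.12 on its channel 2 arrays. The deposited values, before centring and turning of the sign, were 0.21 and 0.21 on the former and −1.34 and −1.30 on the latter. Before centring the larger size therefore lay in the other channel order, so this split by order depended on the centring. Over all treatments the 6 arrays of the first order ranged from −0.042 to 1.72 with a median of 0.30, and those of the second from 0.033 to 0.56 with a median of 0.10. The probe was positive on 11 of 12 arrays. Without treatment 2 the gene had 0.22 and kept its call (limma adjusted p = 0.00623), but within each channel order alone it was not called, at 0.68 in the first (limma adjusted p = 0.216) and 0.18 in the second (limma adjusted p = 0.475).

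Dnaja2 lay below 0 in the mean of each of its probes, although probe 211 turned to the positive side without centring. Probe 211 of slide type 1 had −0.25, −0.25 and −0.0041 log units in treatments 1, 2 and 3, a mean of −0.17 ± 0.14 (SD, n = 3) that was not called (limma adjusted p = 0.137). Treatments 1 and 2 were low only with heat-shocked RNA in channel 2, where their 4 arrays lay between −0.65 and −0.39. With it in channel 1 the 6 arrays of the probe ranged from −0.086 to 0.13. Without treatment 3 it had −0.25 and was called (limma adjusted p = 0.0251), and without centring it had 0.14 (limma adjusted p = 0.439).

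Dnaja2 probe 2437 of slide type 2 had −0.37, −0.33 and −0.27 log units in treatments 1, 2 and 3, a mean of −0.32 ± 0.05 (SD, n = 3, limma adjusted p = 0.0014), and stood 589th from the bottom of 7680. The 3 treatments lay close together, yet the arrays behind them did not: the SD over treatments was 0.37 in the order with heat-shocked RNA in channel 1 and 0.30 in the other, and 0.05 once both were averaged. The adjusted p rests on the averaged values. Over all probes of slide type 2, the channel orders of the same treatment number deviated opposite ways, at r = −0.87 to −0.51. Averaging them can narrow the spread behind this call. In treatment 1 the channel 1 arrays had −0.58 and −0.64 and the channel 2 arrays −0.20 and −0.058, whereas in treatment 2 they had 0.24 and −0.083 against −0.79 and −0.68. All 6 arrays with heat-shocked RNA in channel 2 were negative, and 4 of the 6 with it in channel 1. In the fit of genes the call was lost without centring, at −0.24 (limma adjusted p = 0.358), and within each channel order alone, at −0.19 (limma adjusted p = 0.915) and −0.45 (limma adjusted p = 0.133). Among probes it was also lost with arrays scaled to equal spread, at −0.31 (limma adjusted p = 0.0536). Whether the 2 slide types differ in Dnaja2 was not tested, and their probes are different ones.

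**Figure D2:**
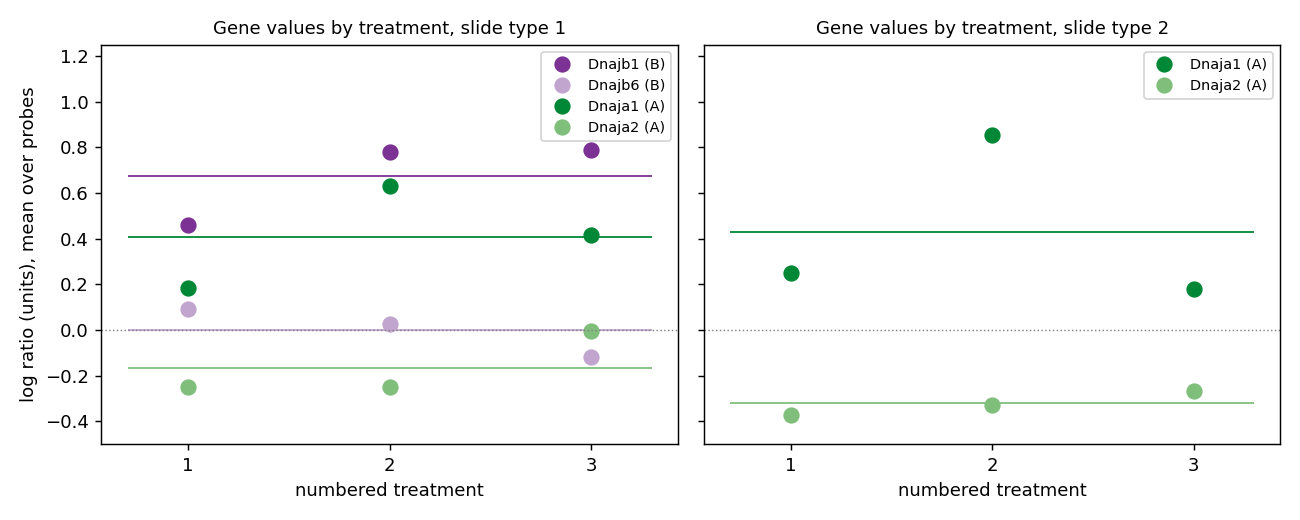
Gene values (vertical axis, log units, mean over the probes of a gene) in each of the 3 numbered treatments (horizontal axis), for slide type 1 on the left and slide type 2 on the right. Horizontal lines are the means of 3 treatments. Dnajb1 lies above Dnajb6, and Dnaja1 above Dnaja2, in every treatment.

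Subfamilies B and A were set side by side on slide type 1, with each gene weighted equally. Subfamily B averaged 0.28, 0.40 and 0.34 log units in treatments 1, 2 and 3, and subfamily A −0.034, 0.19 and 0.21. B exceeded A by 0.22 ± 0.09 (SD, n = 3 treatments). The members within a subfamily lay further apart than that: Dnajb1 exceeded Dnajb6 by 0.68 ± 0.28 units, and Dnaja1 exceeded Dnaja2 by 0.58 ± 0.26 on slide type 1 and 0.75 ± 0.38 on slide type 2. The members were chosen with results known and 2 genes are not replicates of a subfamily, so none of these differences was tested. In order of gene values, Dnajb1 exceeded Dnaja1 in each of the 3 treatments on slide type 1. The 95% intervals of these neighbours overlap, at 0.51 to 0.84 and 0.23 to 0.59. Both genes were measured on the same arrays, so the overlap does not measure the spread of their difference, which was not tested. Probe by probe the order was mixed: Dnajb1 probe 2167 exceeded Dnaja1 probe 5492 in 3 of 3 treatments, by 0.23 ± 0.09, whereas Dnajb1 probe 2265 was below probe 5492 in 3 of 3, with a difference of −0.21 ± 0.20, and above it on 3 of 12 arrays. The intervals of Dnajb6 (−0.13 to 0.14) and Dnaja2 (−0.31 to −0.02) overlap too, with the same limit.

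Set beside these values, the gene with the element of 3 units, Dnajb6, had a log ratio close to 0, and the gene with the largest value of the 4, Dnajb1, has none of the 3 searched motifs in its windows. Dnaja1 has a core and a positive value, and Dnaja2 has neither. With 4 genes this is a description, and a relation between motif and value was not tested.

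The other J-domain proteins, from a list that includes every remaining Dnaja, Dnajb and Dnajc symbol and Sec63, had 20 measured genes. On slide type 1, limma called 1 of 14 positive and 0 negative, with 3 negative at an unadjusted p under 0.05, and with a median of −0.049 log units against −0.038 over all genes. The one called was Dnajc14, a membrane protein of the endoplasmic reticulum, with 0.46, 0.51 and 0.34 log units in the 3 treatments and a mean of 0.43 ± 0.09 (SD, n = 3, limma adjusted p = 0.00106), and it lost its call with heat-shocked RNA in channel 2 only, at 0.21 (limma adjusted p = 0.18). Dnajb4, the close relative of Dnajb1, had −0.025, 0.27 and 0.16, a mean of 0.14 ± 0.15 (limma adjusted p = 0.257). Dnaja3, the mitochondrial member of subfamily A, had −0.11 ± 0.07 (limma adjusted p = 0.267). These 2 were singled out after their values were seen.

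Among the 10 other J-domain genes of slide type 2, 7 were called negative and 1 positive, against the 31.9% and 18.5% of all genes given above, with a median of −0.22 against −0.049. The negative count was 4 without treatment 1, and 0 without centring and within either channel order alone. The positive one, Dnajc25, had 0.20 ± 0.20 with treatment 2 at −0.014 (limma adjusted p = 0.0236), was named after its value was seen, and was lost without treatment 1 or without treatment 3. Dnajc10, a reductase of the endoplasmic reticulum, had −0.34 ± 0.01 (SD, n = 3, limma adjusted p = 0.000163), and Dnajc17, a nuclear member, −0.25 ± 0.12 (limma adjusted p = 0.00304). Dnajb11 and Dnajb9, both co-chaperones of Hspa5 inside the endoplasmic reticulum, had −0.24 ± 0.06 (limma adjusted p = 0.00334) and −0.26 ± 0.20 (limma adjusted p = 0.00619), and Dnajb9 lost its call without treatment 1, at −0.18 (limma adjusted p = 0.0837). Dnajb9 had −0.057 ± 0.09 on slide type 1 (limma adjusted p = 0.621). Of the 16 other J-domain genes with a promoter window, 0 hold GAANNTTC or the element of 3 units and 2 hold TTCNNGAA, where 9.04% of all genes hold GAANNTTC in some window, 9.6% TTCNNGAA and 0.662% the element of 3 units. GAANNTTC is held by 1 of 6 Hsp70 and Hsp110 genes, 4 of 15 cofactors and 2 of 4 Hsp90 and small heat shock genes. For TTCNNGAA the counts in the same lists are 1, 2 and 0, and for the element of 3 units 1, 1 and 0. Differences between lists were not tested.

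**Figure D3:**
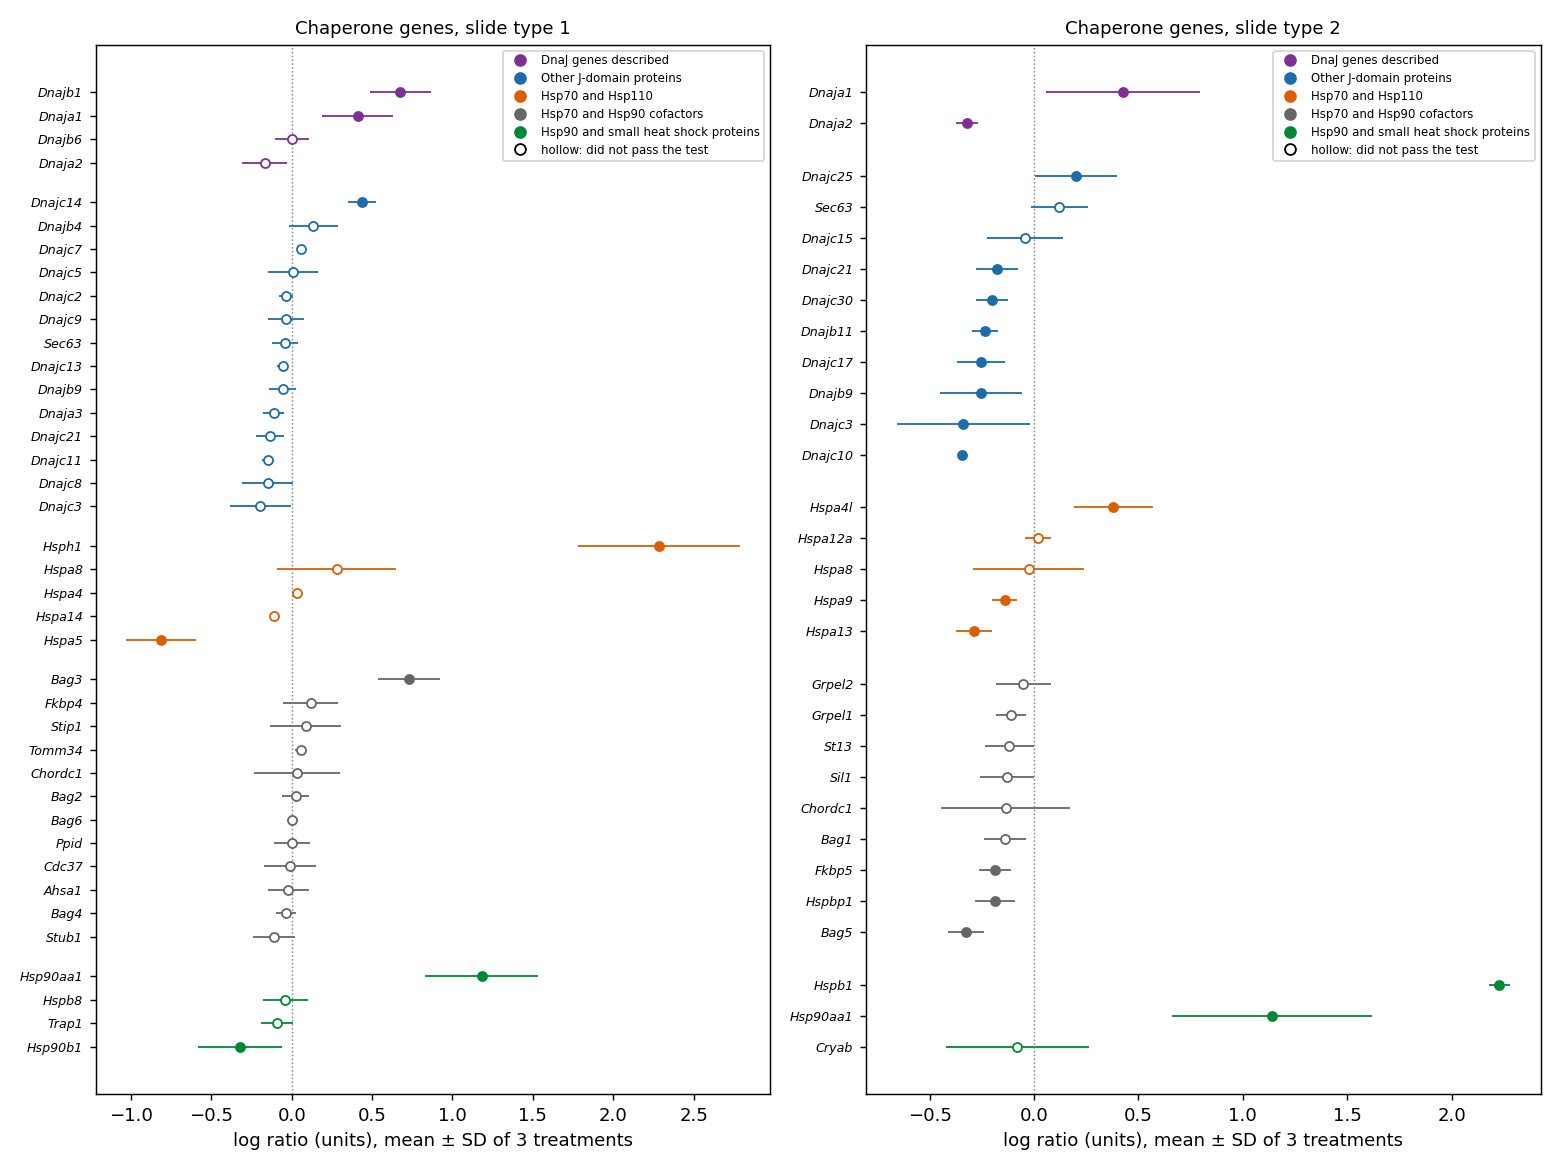
Log ratio (horizontal axis, log units) of the 4 DnaJ genes and of the other measured chaperone genes by list, as mean ± SD of 3 treatments, for slide type 1 on the left and slide type 2 on the right. Filled points passed the limma test at an adjusted p of 0.05. Dnajb1 and Dnaja1 stand above the 14 other J-domain genes of slide type 1 except Dnajc14, which lies above Dnaja1, and below Hsph1 and Hsp90aa1.

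The lists of partners of the DnaJ proteins on slide type 1 stand against 5.73% of all genes called positive and 5.65% negative. Hspa8, the constitutive Hsp70 itself, had 0.023, 0.70 and 0.12 log units in treatments 1, 2 and 3 of slide type 1 and was not called (limma adjusted p = 0.15), nor was it on slide type 2, at −0.21, 0.28 and −0.14 (limma adjusted p = 0.788). It was high in treatment 2 on both slide types. Of 5 Hsp70 and Hsp110 genes, 1 was called on the positive side, Hsph1, an Hsp110 that exchanges the nucleotide of Hsp70, at 2.28 ± 0.50 log units (SD, n = 3), and 1 on the negative, Hspa5, the Hsp70 of the endoplasmic reticulum, at −0.81 ± 0.22. At an unadjusted limma p under 0.05 this list had 2 positive genes and 1 negative, and 2 positive calls without centring, with heat-shocked RNA in channel 1 only and with the replicate block. Of 12 cofactors of Hsp70 and Hsp90, limma called 1 positive and 0 negative (0 negative at an unadjusted p under 0.05). The positive one was Bag3, which links Hsp70 to autophagy, at 0.73 ± 0.19, close in size to Dnajb1. Of 4 Hsp90 and small heat shock genes, Hsp90aa1 was called on the positive side at 1.18 ± 0.35, and Hsp90b1, the Hsp90 of the endoplasmic reticulum, on the negative side at −0.32 ± 0.26. Hsp90b1 had −0.020 without centring (limma adjusted p = 0.909), and it also lost its call without treatment 1, at −0.24 (limma adjusted p = 0.29), without treatment 3, at −0.26 (limma adjusted p = 0.175), with equal spread, with centring on probes with 1 symbol, and in either channel order or suffix alone.

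For slide type 2 these lists gave 1 positive and 2 negative calls among 5 Hsp70 and Hsp110 genes, 0 and 3 among 9 cofactors, and 2 and 0 among 3 Hsp90 and small heat shock genes, where 18.5% of all genes were positive and 31.9% negative, 50.4% in all, so that calls over these 3 lists were about as common as over all genes. At an unadjusted limma p under 0.05 these last 2 lists gave 0 and 4, and 2 and 0. Hspb1, a small heat shock protein, had 2.23 ± 0.05 log units (SD, n = 3, limma adjusted p = 5.27e-14) and kept its call in every alternative run for it. Hsp90aa1 had 1.14 ± 0.48 (limma adjusted p = 9.54e-07) and lost its call with heat-shocked RNA in channel 2 only, at 0.71 (limma adjusted p = 0.0777). Hspa4l, an Hsp110 relative, had 0.38 ± 0.19 log units (SD, n = 3, limma adjusted p = 0.000348), a value near that of Dnaja1. It lost its call in each channel order alone, at 0.55 (limma adjusted p = 0.309) and 0.21 (limma adjusted p = 0.399). Bag5, a cofactor of Hsp70, had −0.33 ± 0.09 (limma adjusted p = 0.000364), near that of Dnaja2. Fkbp5, a cofactor of Hsp90, and Hspbp1, which inhibits Hsp70, had −0.19 ± 0.08 (limma adjusted p = 0.0146) and −0.19 ± 0.10 (limma adjusted p = 0.0158), calls that ended without treatment 3 for Fkbp5 and without treatment 1 for Hspbp1. The 3 negative cofactor calls, that of Bag5 among them, became 5 without treatment 2, and 0 without centring and within either channel order alone. Of the 2 negative Hsp70 calls, Hspa13 had −0.29 ± 0.09 (limma adjusted p = 0.00095) and was lost without centring, at −0.21 (limma adjusted p = 0.436), and in each channel order alone (limma adjusted p = 0.826 and 0.232), and that of Hspa9, the mitochondrial Hsp70, ended when any 1 treatment was left out, with values of −0.17 to −0.12. Of the heat shock factor list, 0 genes had a probe with a single symbol on these slides.

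Likeness of pattern was taken as Pearson's r over the 12 arrays of a slide type, between gene values with the sign turned by channel order. The 3 genes most like Dnaja1 on slide type 1 were Calr (r = 0.94), the pseudogene Hspd1-ps3 (r = 0.93) and Hspd1, the mitochondrial chaperonin (r = 0.93), the last 2 of which may share a sequence and be one signal. Their own means differ in side, since Calr, a chaperone of the endoplasmic reticulum, had −0.64 ± 0.17 log units and Hspd1 0.54 ± 0.22 (SD, n = 3). For Dnaja1 on slide type 2 they were Uspl1 (r = 0.97), Serpinh1, a collagen chaperone (r = 0.96), and Adarb1 (r = 0.96). For Dnajb1 they were Grb2, Polr2h and Pura at r = 0.87, 0.86 and 0.84, and for Dnajb6 Pfkfb2, Timd2 and C1galt1 at r = 0.94, 0.93 and 0.92. For Dnaja2 they were Cltc, Akap8 and Serp1 at r = 0.98, 0.98 and 0.97 on slide type 1, and Psenen, Kdm4b and Cwc15 at r = 0.97, 0.97 and 0.97 on slide type 2. The arrays share slides, dyes and RNA, and the channel difference of a probe enters r along with the response.

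Markers of cell types an embryo culture could hold were few. On slide type 1, limma called 0 of 1 erythroid, 0 of 3 yolk sac endoderm and 0 of 2 trophoblast genes (0, 0 and 1 at an unadjusted p under 0.05), and 1 of 2 neural genes, Tubb3, had −0.21 ± 0.04 log units (SD, n = 3, limma adjusted p = 0.0359). It called 0 of 3 erythroid genes on slide type 2 (1 at an unadjusted p under 0.05), and their values ranged from −0.14 to 0.088. No heart muscle marker was measured on either. Ratios cannot show whether a cell type is present, and the part of these shifts in the DnaJ values was not tested.

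**Figure D4:**
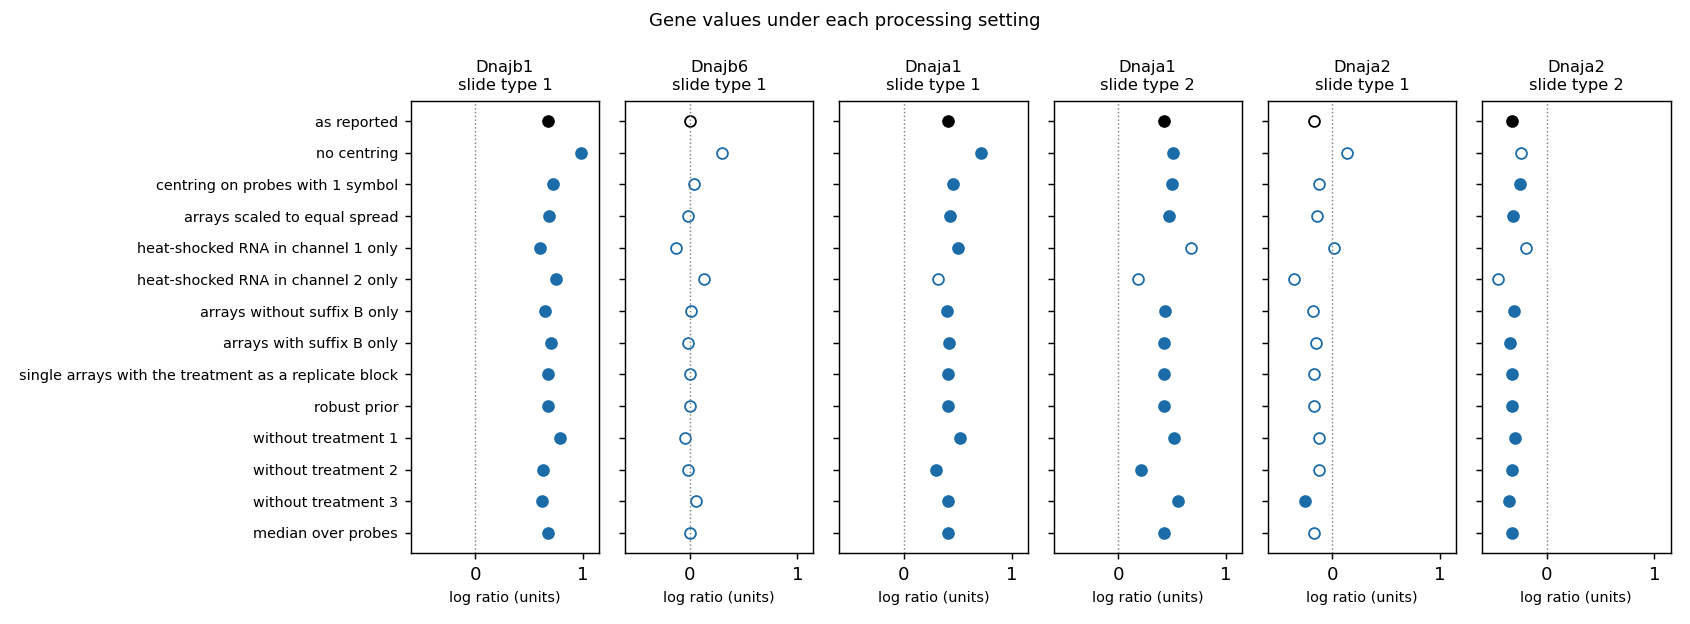
Gene values (horizontal axes, log units) of the 4 DnaJ genes by slide type under each processing setting (listed down the side), the reported one in black. Filled points passed the limma test at an adjusted p of 0.05. Dnajb1 is filled under every setting, and Dnaja2 on slide type 1 is filled only without treatment 3.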

How the data were processed

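Per the labels, each array set total RNA of heat-shocked embryos against that of control embryos in 2 channels. The deposited value of a probe is the authors' processed log ratio, in one table per slide type, and was handled as a score: its base, numerator, background correction and normalization are not stated. Deposited array medians ran from −1.51 to 0.65, and 0 values were missing. The median of all 7680 probes was subtracted from each array, and the sign was turned where the labels put heat-shocked RNA in channel 2. Spot intensities were not used, so dim spots are not set apart, and the number of arrays limits the precision.

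The 4 arrays of a treatment were averaged and fitted as an intercept with limma 3.58.1 (R 4.3.3; lmFit, eBayes), after a check on simulated data. The p-values were adjusted after Benjamini-Hochberg across all probes, or all genes, at 0.05. A gene is the mean of its probes with 1 symbol, of which slide type 1 held 4749 and slide type 2 held 4935. The digit behind the dot of a treatment label was read as the slide type, as the tables showed. Treatment numbers pair the channel orders through the labels. Deviations of the same number correlated at −0.14 to 0.33 on slide type 1 and −0.87 to −0.51 on slide type 2, where treatments 1 and 2 correlated with another number at up to 0.84 and 0.82. Averaging by number lets such opposite deviations cancel, which can narrow the spread behind the calls of slide type 2.

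Members, lists and tests were chosen with earlier results of these data known. Named genes were the members with every probe, up to 4 called genes per list and slide type with 1 sign in every treatment, and the 3 genes most like each member. The 13 alternatives changed the centring, scaling, channel order, suffix, block, prior, treatments and probe average, and those for lists were added after seeing the data. All 4 genes matched RefSeq (GRCm38.p6) by symbol. Plots used matplotlib 3.10.9.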

Additional observations from a re-analysis of the deposited data

Results flagged for a closer look

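After centring, Dnajb6 probe 3754 on slide type 1 differed between the channel orders. Every array with heat-shocked RNA in channel 1 lay below 0, with a mean of −0.28 log units. Every array with it in channel 2 lay above 0, with a mean of 0.28 (6 arrays each). The difference was not tested, and without centring the ranges of the channel orders overlap. Dixon's criterion marked no single array in 18 groups of 6 arrays of the 9 member probes. It cannot mark a pair that stands apart together, such as the 1.72 and 1.51 of Dnaja1 probe 5104 in treatment 2, both with heat-shocked RNA in channel 1. The deposited value before centring was 0.21 on each of these arrays, and −1.34 and −1.30 on the channel 2 arrays of that treatment. The large values of this pair therefore depended on the centring.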

How the results depend on the processing

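All 13 alternatives kept the call of Dnajb1 (0.60 to 0.98 log units). With heat-shocked RNA in channel 1 only, Dnaja1 on slide type 2 had 0.68, Dnaja2 0.019 on slide type 1 (its probe 211 likewise) and −0.19 on slide type 2, and Dnajb6 −0.13, while Dnajb11, Fkbp5 and Hspa9 turned positive at 0.069, 0.22 and 0.12. With it in channel 2 only, Dnaja1 lay at 0.31 (slide type 1) and 0.18 (slide type 2), Dnaja2 −0.45 on slide type 2, and Dnajb6 probes 3754 and 6305 had 0.28 and −0.020. In these settings, each with fewer arrays, the calls of Dnaja1 on slide type 2 and of Dnaja2 on slide type 2 were lost in both orders and that of Dnaja1 on slide type 1 in the second. Without centring, which moved the median of all probes to 0.29 on slide type 1 and 0.11 on slide type 2, Dnaja2 and its probe 211 had 0.14 on slide type 1, Dnaja2 −0.24 on slide type 2, and Dnajb6 probe 3754 had 0.30. Dnajb6, close to 0, also changed side with equal spread (−0.019) and with suffix B only (−0.012), as did its probe 3754 with centring on probes with 1 symbol (0.042) and suffix B only (0.045), and its probe 6305 with suffix B only (−0.068). The cause of these changes was not tested.

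Leaving out 1 treatment gave −0.25 to −0.13 for Dnaja2 on slide type 1, −0.046 to 0.059 for Dnajb6, −0.058 to 0.056 for probe 3754, −0.093 to 0.062 for probe 6305, 0 to 1 negative member probes on slide type 1, 234 to 430 negative probes there and 994 to 3038 positive probes on slide type 2. Negative calls over all probes of slide type 1 (391) numbered 14 without centring, 221 with centring on probes with 1 symbol, 1140 with channel 1 only, 196 with suffix B only and 678 with the replicate block. Those of slide type 2 (1877) numbered 135, 1205, 514 with equal spread, 13 with channel 1 only and 236 with channel 2 only. Positive calls numbered 472 with channel 2 only on slide type 1 (844), and on slide type 2 (2219) 422 without centring, 630 with equal spread, 213 with channel 1 only and 464 with channel 2 only. Negative member probes numbered 1 on slide type 1 with channel 1 only, and 0 on slide type 2 without centring, with equal spread and in each channel order, where positive ones were 0 as well in each channel order. The replicate block changed no member call. Dnajb1 had 0.68 (limma adjusted p = 4.59e-07) and Dnaja2 on slide type 1 −0.17 (limma adjusted p = 0.0983). The consensus correlation of arrays within a treatment, fitted over probes, was 0.067 on slide type 1 and −0.22 on slide type 2. A value below 0 lets opposite deviations narrow the error here too, so the kept calls of slide type 2 are not a separate check.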
